A study of Mus musculus with 10 samples.

Results

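The 6 genes described here are Gmds, Fpgt, Slc35c1, Slc35c2, Fuca1 and Fuca2, which make GDP-fucose, bring it into the Golgi or remove fucose from glycans. They were taken by name, all 6 were found among the 32285 genes of the matrices, and the rule uses no measured value. Each was read as raw UMIs (counts of distinct captured RNA molecules) summed over the barcodes of a cell class in a library and divided by all UMIs of that sum, as CPM (UMIs in every 1000000 of the sum). Barcodes with at least 500 genes and at most 10% of UMIs from mitochondrial (mt-) genes were kept, and divided in order into T cells (at least 2 UMIs of Cd3e, Cd3d and Cd3g together), macrophages (at least 10 UMIs of C1qa, C1qb and C1qc), tumor (at least 1 UMI of Sox10 and none of Ptprc) and other barcodes.

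The cells came from tumors of SW1, a mouse melanoma line, grown under the skin of female C3H/HeJ mice aged 4 to 6 weeks and sorted for CD45. There were 5 gene expression libraries, 1 for each condition: pretreatment (control day 0), and a control and an L-fuc library for each of day 7 and day 21. Control mice drank plain water and L-fuc mice drank water with L-fucose. Where 5 values follow each other they stand in this order: day 0, then control and L-fuc of day 7, then control and L-fuc of day 21. The labels call day 0 control water, and describe it as a cohort of 3 mice taken before treatment began. Each condition thus had 1 library from a cohort of mice, with no label that tells the mice apart, so no test was possible within a day, and the only test of L-fuc joined both days, with 2 pairs of libraries. The labels give the L-fuc dose as 100 mM in one place and 100 nM in another, and the size of a treated arm as 5 or 6 mice, and neither could be settled from the counts.

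GDP-fucose is the donor that every fucosyltransferase uses. Most cells make it de novo from GDP-mannose, through GDP-mannose 4,6-dehydratase (Gmds) and then the epimerase and reductase Tsta3, and a salvage route uses free L-fucose, through fucokinase (Fcsk) and fucose-1-phosphate guanylyltransferase (Fpgt). Slc35c1 carries GDP-fucose from the cytosol into the Golgi, and Slc35c2 is a related Golgi and early secretory protein. Fuca1 is the lysosomal α-L-fucosidase that takes fucose off glycoproteins and glycolipids during their breakdown, and Fuca2 is a second, largely secreted fucosidase.

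The genes lie on 5 chromosomes of GRCm38, the build called mm10 in the submitters' processing notes, at the positions of GENCODE vM21. Gmds is at chr13:31819579-32338740 on the minus strand, Fpgt at chr3:155084918-155093403 on the minus strand, Slc35c1 at chr2:92452764-92460538 on the minus strand, Slc35c2 at chr2:165276554-165287869 on the minus strand, Fuca1 at chr4:135920735-135940311 on the plus strand and Fuca2 at chr10:13499540-13519035 on the plus strand. All 6 are protein coding. No other gene of the matrices overlapped an exon of any of them, and within an intron of Gmds lay the antisense gene Gm35732, with 15 UMIs in all kept barcodes. The bases that RefSeq (GRCm38.p6) places just before the start are shown, 5′ to 3′ on the gene's strand, for Fuca1 and Slc35c2, which were both higher in macrophages, and for Gmds, which was higher in tumor barcodes. Capitals mark CCGCCC, the reverse complement of the GC box GGGCGG, and each stretch stops where the first annotated exon begins.
Fuca1, chr4:135920476-135920725: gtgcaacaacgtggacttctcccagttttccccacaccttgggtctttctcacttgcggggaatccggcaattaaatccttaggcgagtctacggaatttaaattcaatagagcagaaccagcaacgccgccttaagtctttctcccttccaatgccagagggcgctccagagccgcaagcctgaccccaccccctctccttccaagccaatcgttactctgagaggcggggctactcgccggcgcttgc
Slc35c2, chr2:165287889-165288088: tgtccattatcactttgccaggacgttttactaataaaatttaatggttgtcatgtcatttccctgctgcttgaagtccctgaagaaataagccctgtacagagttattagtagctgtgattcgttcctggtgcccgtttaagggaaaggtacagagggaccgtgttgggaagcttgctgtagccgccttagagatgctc
Gmds, chr13:32338763-32338794: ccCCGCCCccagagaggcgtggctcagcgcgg

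RefSeq windows of 250 bases before a start were given for 5 of the 6 members, 7 windows in all. Read on both strands, the GC box GGGCGG stood 5 times in the Gmds window and once in each of the Slc35c2 windows, and at least once in 32.7% of 32851 windows of the same length. Neither the E-box CACGTG (6.02% of all windows) nor the purine-rich GAGGAA (23.3%) was found in a window of these members. The Slc35c2 match and most of those of Gmds lie in the part of the window that is annotated exon and is not shown. CACGTG reads the same on both strands, no motif here contains another, and a match describes the sequence alone.

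The classes were checked first, because every level below rests on them. Of 41936 barcodes, 31156 were kept, and the kept barcodes of a library held between 14231519 and 114827373 UMIs, with a median of 2890.5 to 8201 UMIs a barcode. Despite the CD45 sort, between 46.4% and 72.4% of the kept barcodes of a library had no UMI of Ptprc, the gene of CD45. The T cell class numbered 477, 1497, 1820, 67 and 50 barcodes, so the T cells of day 21 are few. Among the markers that the rules did not use, Csf1r reached 196 to 318 CPM in macrophages and at most 2.90 in tumor barcodes, but 42.1 to 84.4 in the T cell class. Lck reached 143 to 370 in T cells and at most 3.06 in tumor barcodes, and S100b 25.6 to 50.8 in tumor barcodes, at most 19.4 in T cells and at most 12.98 in macrophages. Mitf, also read as a tumor marker, did not divide tumor barcodes (29.0 to 45.5) from macrophages (28.75 to 43.55). In T cells Mitf was at 8.66 to 29.6. Sparc, at 3004 to 3882 in tumor barcodes, reached 92.2 to 1369 in T cells and 45.3 to 1131 in macrophages, and what this means for the levels of members in those classes was not tested. The pigment genes Tyr, Mlana, Pmel and Dct were at or near 0 in the tumor class (at most 2.68), so the class is called tumor by its Sox10 rule, not by pigment genes.

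Between 16.4% and 25.9% of the barcodes that met the T cell rule also met the macrophage rule, and they were counted as T cells. At day 7, 184 of 1497 control and 70 of 1820 L-fuc barcodes of the T cell class also met the tumor rule. In the macrophage class 164 of 1417 control and 96 of 1599 L-fuc barcodes did. C1qa, C1qb and C1qc together were at 16.9% to 33.0% of their macrophage level in the T cell class. Between 2 and 222 barcode sequences were shared by each pair of libraries, 222 of them by both libraries of day 7. Results were recomputed without the barcodes that met more than 1 rule and without the shared ones. A level of a class does not depend on its number of cells, but a lower level and fewer expressing cells within a class cannot be told apart in these sums.

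Of the 4 classes, Gmds was highest in tumor barcodes in every library. Its level in tumor barcodes was 32.7 CPM at day 0, 26.9 (control) and 28.5 (L-fuc) at day 7, and 39.5 (control) and 33.6 (L-fuc) at day 21. In T cells, in the same order, it was 15.8, 21.3, 18.9, 25.1 and 24.1 CPM. In macrophages it was 12.2, 15.2, 16.1, 17.3 and 15.8 CPM. Every tumor value lay above every T cell and every macrophage value, and within each library macrophages were the lowest of these 3 classes.

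Fpgt, the last enzyme of the salvage route, had few UMIs in all classes. Its level was 7.31 to 11.5 CPM in tumor barcodes, 2.44 to 5.89 in macrophages and 3.85 to 12.6 in T cells. The T cell range rests on 7 UMIs at control day 21 and 4 UMIs at L-fuc day 21. Tumor barcodes were above macrophages in 5 of 5 libraries, while T cells and tumor barcodes had no constant order.

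Slc35c1, the Golgi GDP-fucose transporter, had few UMIs too. In T cells its level was 15.01 CPM at day 0, 7.66 (control) and 8.19 (L-fuc) at day 7, and 7.18 (control) and 3.85 (L-fuc) at day 21. Macrophages held 5.11 to 8.56 and tumor barcodes 3.14 to 4.65 CPM. The pretreatment T cells were thus the highest of these 15 values, and tumor barcodes were below macrophages in 5 of 5 libraries.

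Of the 4 classes, Slc35c2 was highest in macrophages in every library. Its macrophage level was 46.3, 39.9, 43.9, 81.5 and 57.5 CPM in the 5 libraries. T cells held 30.5, 28.8, 28.0, 53.9 and 41.4 CPM. Tumor barcodes held 39.1, 26.3, 26.5, 30.9 and 26.5. Macrophages were 1.38 to 1.57 times the T cells of their own library, but the ranges of these classes overlap across libraries because both were high at day 21. T cells with fewer than 10 UMIs of C1qa, C1qb and C1qc held at most 32.2 CPM in any library.

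Fuca1, the lysosomal fucosidase, was at 143, 120.4, 112, 136 and 125 CPM in macrophages. It was at 68.7, 81.0, 65.6, 105.9 and 63.5 in T cells. In tumor barcodes it was at 73.8, 71.7, 73.3, 96.4 and 70.1. Every macrophage value lay above every value of T cells and tumor barcodes, while these last were not in a constant order.

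Fuca2 divided the classes most widely. Macrophages held 84.8, 51.3, 50.4, 70.5 and 70.1 CPM. T cells held 31.3, 26.3, 27.7, 41.3 and 31.8. Tumor barcodes held 8.95, 7.24, 6.74, 7.74 and 7.18. The ranges of the 3 classes do not overlap, and in each library tumor barcodes were at 0.102 to 0.141 of the macrophage level.

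**Figure D1:**
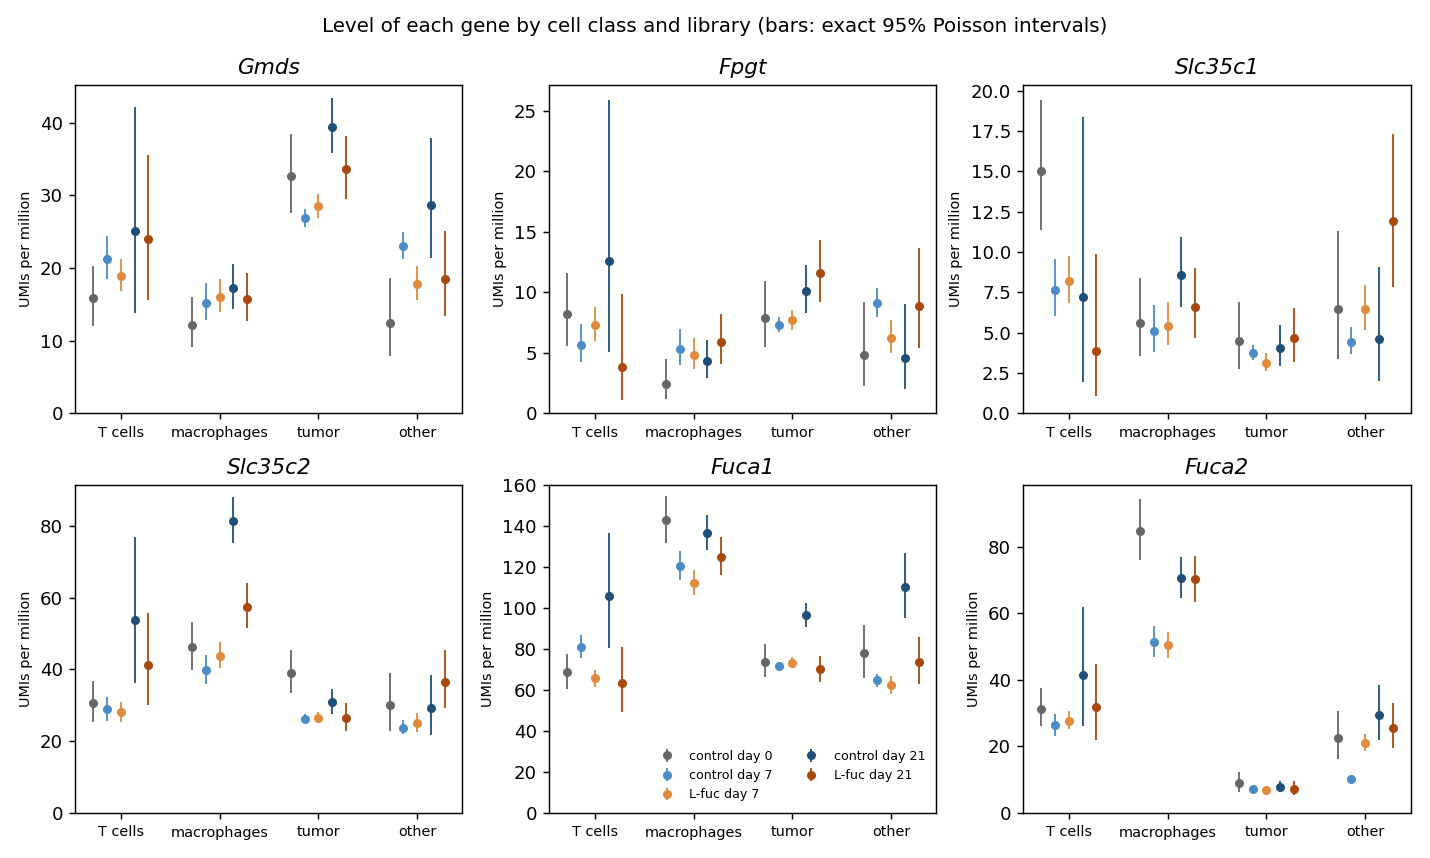
CPM (vertical axes, linear from 0) of each gene in T cells, macrophages, tumor and other barcodes, 1 point for each of the 5 libraries, with exact 95% Poisson intervals that cover counting error only. Fuca2 separates macrophages (50.4 to 84.8), T cells (26.3 to 41.3) and tumor barcodes (6.74 to 8.95), and Gmds is highest in tumor barcodes (26.9 to 39.5).

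The classes were then compared over the 5 libraries with edgeR's quasi-likelihood test, the library as a block and all genes scaled by TMM, and p-values were adjusted over 12932 genes by Benjamini-Hochberg. The 5 libraries are pools from different conditions, so the p-values measure how far a class difference repeats across them. Between macrophages and T cells, 3 of the 6 members passed, all higher in macrophages, beside 34.0% of all genes (18.3% higher and 15.7% lower). Fuca2 was higher by 1.35 on the log2 scale (SE 0.16, adjusted p = 0.000178), Fuca1 by 1.05 (SE 0.13, adjusted p = 0.000203) and Slc35c2 by 0.88 (SE 0.19, adjusted p = 0.00463), each in 5 of 5 libraries. With barcodes that met more than 1 class rule left out, these differences were 1.88, 1.52 and 1.28. Gmds (-0.15, adjusted p = 0.276), Fpgt (-0.40, adjusted p = 0.272) and Slc35c1 (-0.24, adjusted p = 0.561) did not pass, and the sign for Slc35c1 turned to 0.042 without the library of control day 0.

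Between tumor barcodes and T cells, 4 of 6 members passed, 1 of them higher and 3 lower in tumor, beside 63.6% of all genes (29.7% higher and 33.9% lower). Fuca2 was lower in tumor by 2.31 on the log2 scale (log2 fold change -2.31, SE 0.17, adjusted p = 1.75e-06) and Slc35c1 had a log2 fold change of -1.47 (SE 0.28, adjusted p = 0.000908). Gmds was higher by 0.32 (SE 0.10, adjusted p = 0.0146), in 5 of 5 libraries, and did not pass when both libraries of day 21 were left out (0.33, adjusted p = 0.0541). Slc35c2, at -0.52 (adjusted p = 0.0314), did not pass without L-fuc day 7 (-0.54, adjusted p = 0.0712), without control day 21 (-0.39, adjusted p = 0.0758) or without L-fuc day 21 (-0.40, adjusted p = 0.118), nor with overlapping barcodes left out (-0.22, adjusted p = 0.376). In CPM, Slc35c1 and Slc35c2 were each higher in tumor than in T cells in 1 of 5 libraries. For Slc35c1 this was L-fuc day 21 (1.21 times, on 4 UMIs in T cells), and for Slc35c2 control day 0 (1.28 times). Fuca1 did not pass (-0.28, adjusted p = 0.0703) and turned to 0.11 with overlapping barcodes left out, and Fpgt was at -0.05 (adjusted p = 0.869), with a sign that turned without control day 0 (0.16), L-fuc day 7 (0.017) or control day 21 (0.025). With each barcode thinned to 1000 UMIs, Fpgt and Slc35c1 fell below the filter on counts and were not tested. Of the other members, 1 passed in this comparison, beside 3583 of the 6938 genes tested.

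Between tumor barcodes and macrophages, 5 of 6 members passed, beside 69.8% of all genes (34.3% higher and 35.5% lower). Gmds was higher in tumor by 0.47 on the log2 scale (SE 0.09, adjusted p = 0.000901). The other four were lower in tumor, with log2 fold changes of -3.66 for Fuca2 (SE 0.17, adjusted p = 9.23e-08), -1.40 for Slc35c2 (SE 0.18, adjusted p = 5.59e-05), -1.33 for Fuca1 (SE 0.13, adjusted p = 4.27e-06) and -1.23 for Slc35c1 (SE 0.26, adjusted p = 0.00156). All were in the same direction in 5 of 5 libraries. Fpgt was at 0.35 (adjusted p = 0.200).

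**Figure D2:**
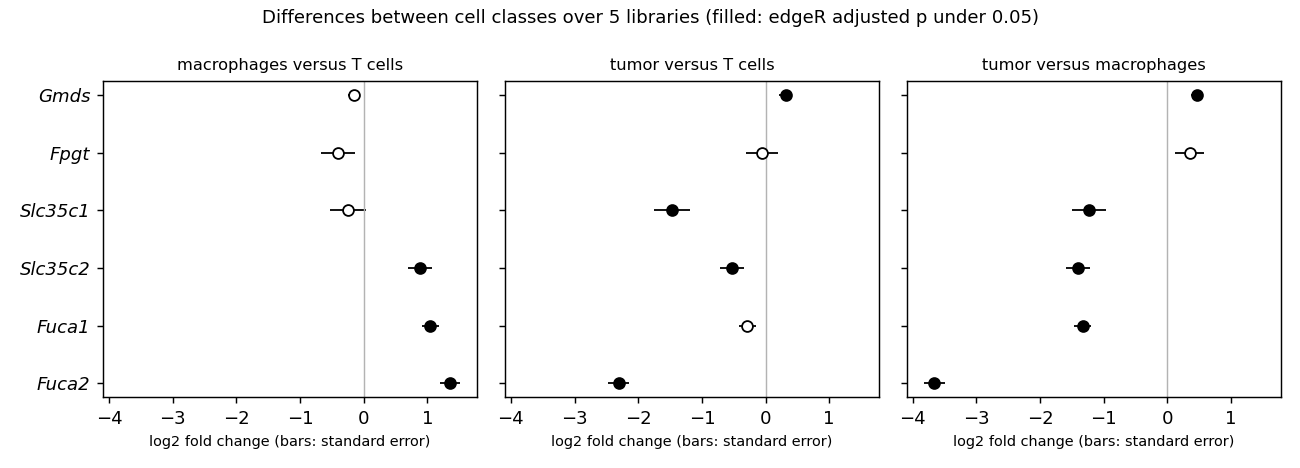
Log2 fold change between cell classes for each gene (horizontal axes) over 5 libraries, filled where edgeR's adjusted p is under 0.05. Bars are standard errors worked out from edgeR's estimate and p-value. Fuca2 spans 1.35, -2.31 and -3.66 in the 3 comparisons, and Gmds is the member that is higher in tumor in both comparisons with it.

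The scaling moved some of these values. With totals of UMIs in place of TMM, the median log2 difference of all genes moved from -0.04 to -0.32 for macrophages against T cells, from -0.03 to 0.27 for tumor against T cells and from 0.00 to 0.59 for tumor against macrophages. The share of calls that were higher in the first class moved from 53.9% to 27.0%, from 46.7% to 62.7% and from 49.2% to 73.0%. On that scale Gmds was lower in macrophages than in T cells (-0.44, edgeR adjusted p = 0.0155), Fpgt was higher in tumor barcodes than in macrophages (0.92, adjusted p = 0.00612), Slc35c2 no longer passed between tumor and T cells (-0.23, adjusted p = 0.228), and Fuca1 and Fpgt turned to 0.011 and 0.25 between tumor and T cells without passing. No call on Fuca2 changed.

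Other genes of the pathway were read from lists chosen for their function. Of 7 other genes of GDP-fucose and GDP-mannose synthesis, none passed between macrophages and T cells in edgeR, beside 34.0% of all genes. Their median log2 difference was 0.12, beside -0.04 for all genes. In tumor barcodes against T cells, 3 were higher and 1 lower, beside 29.7% and 33.9% of all genes. Against macrophages 3 were higher and 3 lower, beside 34.3% and 35.5% of all genes. Fcsk, the fucokinase that feeds Fpgt, was higher in tumor by 1.02 against T cells (adjusted p = 0.00240) and by 1.46 against macrophages (adjusted p = 0.000119). Tsta3, which follows Gmds, was at -0.08 (adjusted p = 0.611) and -0.20 (adjusted p = 0.178) in those comparisons. These signs rest on the TMM scale. In CPM Tsta3 was at 32.6 to 41.4 in tumor barcodes, 23.7 to 32.9 in macrophages and 25.0 to 44.9 in T cells. On that scale tumor was above macrophages in every library, and above T cells in all but control day 21.

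Of 10 fucosyltransferases, the enzymes that spend GDP-fucose, 7 passed the filter on low counts. Of these, 1 was higher in macrophages than in T cells, beside 18.3% of all genes. In tumor barcodes 1 was higher and 2 lower than in T cells, beside 29.7% and 33.9% of all genes. Fut4 and Fut7, which build Lewis-type structures on leukocytes, had log2 fold changes of -6.12 (adjusted p = 5.60e-06) and -5.06 (adjusted p = 1.33e-05) in tumor barcodes against macrophages. In that comparison Fut8, which makes core fucose on N-glycans, was higher by 0.61 (adjusted p = 0.0120) and Pofut2, an O-fucosyltransferase of the endoplasmic reticulum, by 0.55 (adjusted p = 0.000229). Of 7 other nucleotide sugar transporters, 4 were higher and 2 lower in tumor barcodes than in macrophages, beside 34.3% and 35.5% of all genes. Their median was 0.46 beside 0.00 for all genes, against which Slc35c1 and Slc35c2 were both lower. None of the 7 was higher and 1 was lower in macrophages than in T cells, beside 18.3% and 15.7% of all genes.

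Of 14 other genes of glycan and glycolipid breakdown, most of them lysosomal glycosidases, 13 were higher in macrophages than in T cells, beside 18.3% of all genes. Engase (0.38, edgeR adjusted p = 0.233) did not pass. Their median log2 difference was 1.22, beside 1.05 for Fuca1 and 1.35 for Fuca2. All 14 were lower in tumor barcodes than in macrophages, beside 35.5% of all genes. The median there was -1.74, beside -1.33 for Fuca1 and -3.66 for Fuca2. Against T cells, 10 were lower and 2 higher in tumor, with a median of -0.75, beside 33.9% and 29.7% of all genes.

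A share taken within a library and class needs no scaling between libraries. Fuca2 made up 37.3%, 29.9%, 31.0%, 34.1% and 35.9% of the UMIs of both fucosidases in macrophages. In T cells the share was 24.5% to 33.3%, and in tumor barcodes 10.8%, 9.17%, 8.42%, 7.43% and 9.29%. Every tumor share was below every share of the other 2 classes, in both the control and the L-fuc libraries.

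Fcsk and Fpgt, the salvage genes, together made up 16.6% to 23.8% of the UMIs of Gmds, Tsta3, Fcsk and Fpgt in tumor barcodes and 9.71% to 17.4% in macrophages. In T cells they made up 12.1% to 19.4%. The tumor share was above the macrophage share in 5 of 5 libraries, but at day 0 it was below that of T cells (16.6% against 19.4%). Slc35c2 made up 88.6% to 90.5% of the UMIs of Slc35c1 and Slc35c2 in macrophages, 85.1% to 89.7% in tumor barcodes and 67.1% to 91.5% in T cells. The T cell share was lowest at control day 0, where Slc35c1 was highest. These shares were chosen after the levels had been seen and are given without a test.

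**Figure D3:**
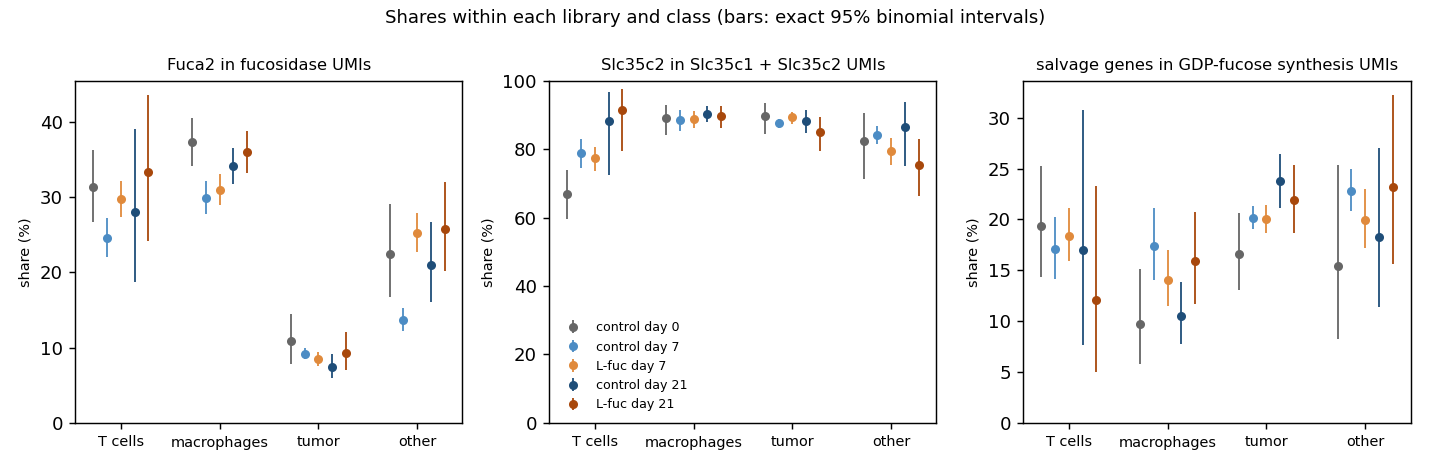
Share (%) of Fuca2 in fucosidase UMIs, of Slc35c2 in the UMIs of both Slc35c genes, and of the salvage genes Fcsk and Fpgt in the UMIs of Gmds, Tsta3, Fcsk and Fpgt, by class, 1 point for each library, with exact 95% binomial intervals. Fuca2 is 7.43% to 10.8% of fucosidase UMIs in tumor barcodes and 29.9% to 37.3% in macrophages.

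The T cell class was divided further. T cell barcodes with C1q of at least 10 UMIs held 1.67 to 2.67 times the Fuca2 and 1.42 to 1.66 times the Fuca1 of those below 10, in the 3 libraries with at least 20 such barcodes, where their median depth was 9726 to 11171 UMIs against 3397 to 4289.5. Below 10 UMIs of C1q, Fuca2 was at 20.8, 15.8, 21.6, 24.3 and 21.0 CPM in T cells in the 5 libraries, still above every tumor value. Slc35c2 was at 1.28 to 1.48 times in the same 3 libraries, with an interval above 1 in 2. Below 10 UMIs of C1q, Slc35c2 was at 24.1 to 32.2 CPM in T cells over the 5 libraries. The part of depth and of macrophage RNA in the T cell levels was not tested. T cells with Foxp3, the gene of regulatory T cells, had Fuca2 at 1.13 to 1.35 times that of Foxp3-negative Cd4 T cells in 3 of 3 libraries, and every interval held 1. Cd8a and Cd4 T cells had no constant order for Fuca2 (0.961 to 1.18).

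Macrophages with Arg1, the arginase gene, differed from those without it in Slc35c2. Macrophages with at least 2 UMIs of Arg1 held 31.1, 35.0, 34.3, 37.2 and 37.7 CPM of Slc35c2. Macrophages without Arg1 held 58.6, 41.4, 45.8, 85.2 and 64.4. The Arg1 group was lower in 5 of 5 libraries, at 0.436 to 0.847 of the other, and the counting interval lay below 1 in 4 of them. Slc35c1 was lower in 5 of 5 libraries too (0.156 to 0.825), on 1 to 8 UMIs in the Arg1 group, whereas Fuca2 (0.824 to 1.21) and Fuca1 (0.862 to 1.12) had no constant order. Arg1 barcodes were deeper, with medians of 8718 to 22934 UMIs against 3849 to 5081.5, and the part of depth in this difference was not tested.

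Tumor barcodes in cycle, with at least 2 UMIs of Mki67 and Top2a, differed from those with none in Gmds. Cycling tumor barcodes held 46.3, 31.4, 31.9, 42.8 and 38.9 CPM of Gmds in the 5 libraries, and the others held 25.7, 24.5, 26.6, 35.4 and 24.5. The cycling group was higher in 5 of 5 libraries, at 1.20 to 1.80 times the other, with an interval above 1 in 4. Slc35c2 was lower in cycling barcodes in 5 of 5 libraries (0.769 to 0.932), with an interval below 1 in 3. Cycling barcodes were deeper, with medians of 9867 to 34914.5 UMIs against 6712 to 20174, and its part was not tested.

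Among the barcodes of no main class, Fuca2 was at 39.1 and 75.5 CPM in pDC of control day 7 and L-fuc day 7, and at 26.7 and 54.1 in mast cells of the same libraries. The pDC gate held 67 and 30 barcodes and the mast cell gate 22 and 129, and the counting intervals of both pairs overlapped. Slc35c2 was at 48.9 and 99.1 CPM in these pDC, above the macrophages of both libraries, and Gmds at 32.6 and 37.7, above their tumor barcodes, with wide counting intervals. In NK cells Fuca2 was at 21.7 in control and 36.0 with L-fuc at day 7, and at 92.8 at day 0 on 6 UMIs in 20 barcodes. The neutrophil gate reached the minimum of 20 barcodes only in L-fuc day 7. Its 40 barcodes there had no UMI of Gmds or Fpgt among 120795, a depth at which the 95% interval reaches 30.5 CPM. A gate on Ccr7, Fscn1 and Ccl22 for mature DC is not reported, since Fscn1 reached 203 to 389 CPM in tumor barcodes.

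**Figure D4:**
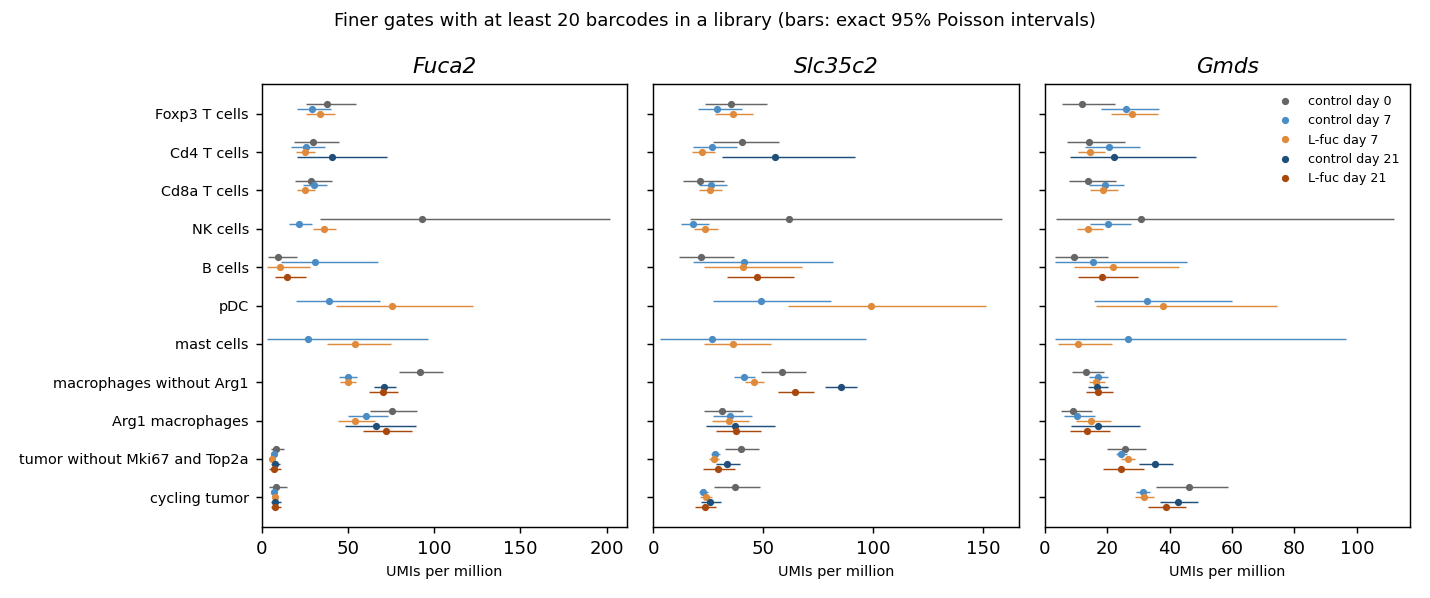
CPM (horizontal axes, linear from 0) of Fuca2, Slc35c2 and Gmds in finer gates, 1 point for each library with at least 20 barcodes in the gate, with exact 95% Poisson intervals. Slc35c2 is lower in macrophages with Arg1 (31.1 to 37.7) than in those without (41.4 to 85.2), and Gmds is higher in cycling tumor barcodes in each library.

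Whether L-fuc moved the genes that make, carry and remove fucose was asked next, within each class. At day 7, 1 of 24 pairs of member and class was past 1.5-fold between L-fuc and control, all 24 having at least 50 UMIs in both libraries together. Over all genes with as many UMIs, 25.0% were past 1.5-fold in T cells, 19.8% in macrophages, 9.54% in tumor barcodes and 30.9% in other barcodes. Their median log2 ratio was -0.13 in T cells, -0.20 in macrophages, -0.04 in tumor and -0.15 in other barcodes, and the ratios below are not corrected for it. In tumor barcodes the 6 ratios of L-fuc to control ranged from 0.844 for Slc35c1 (95% interval 0.678 to 1.05) to 1.06 for Gmds (0.986 to 1.14), and every interval held 1. In macrophages they ranged from 0.900 for Fpgt (0.610 to 1.33) to 1.10 for Slc35c2 (0.964 to 1.26), and every interval held 1. In T cells Fuca1 was at 0.811 (0.738 to 0.891), 65.6 CPM against 81.0, and the other five intervals held 1. Of the pathway partners, Fcsk in T cells was at 3.17 CPM with L-fuc and 4.84 in control, a ratio of 0.656 (0.430 to 0.999) on 48 UMIs in each library, and the other intervals of Fcsk and Tsta3 held 1 at day 7.

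The pair past 1.5-fold was Fuca2 in other barcodes, at 21.1 CPM with L-fuc and 10.2 in control, a ratio of 2.06 (1.74 to 2.45). In the same class Gmds was at 0.776 (0.665 to 0.904), Fpgt at 0.685 (0.526 to 0.883) and Slc35c1 at 1.46 (1.09 to 1.94). Thus 4 of the 5 intervals that left out 1 at day 7 were in other barcodes, the class with the largest share of all genes past 1.5-fold (30.9%). The share of all genes with such an interval was not counted. Other barcodes are a mixture, and its make-up differed: 754 of 2795 were in the NK gate and 129 in the mast cell gate with L-fuc, against 474 and 22 of 6335 in control. Within gates Fuca2 was at 36.0 with L-fuc and 21.7 in control in NK cells, at 18.1 and 10.2 in the rest with Ptprc and at 10.1 and 8.06 in the rest without Ptprc. The part of the make-up in this ratio was not tested. Control day 7 held the lowest Fuca2 of the 5 libraries in other barcodes, where day 0 was at 22.6 CPM. At day 21 Fuca2 in this class was at 25.6 with L-fuc and 29.3 in control, a ratio of 0.874 (0.589 to 1.30).

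At day 21, 2 of the 19 pairs with at least 50 UMIs were past 1.5-fold, and 5 pairs had fewer UMIs. The share over all genes was 34.2% in T cells, 9.37% in macrophages, 6.91% in tumor barcodes and 25.0% in other barcodes. Their median log2 ratio was -0.08 in T cells, -0.0045 in macrophages, -0.01 in tumor and -0.20 in other barcodes. Fuca1 in T cells was at 63.5 CPM with L-fuc and 105.9 in control, a ratio of 0.600 (0.416 to 0.867), from 50 and 67 barcodes. Leaving out barcodes that met more than 1 class rule kept 34 of the 50 L-fuc and 54 of the 67 control barcodes. In each library 11 barcodes had met the macrophage rule, and 5 with L-fuc and 2 in control the tumor rule. The log2 ratio of Fuca1 then moved from -0.74 to -1.97, but on fewer than 50 UMIs, so the pair no longer counted. Gmds in other barcodes was at 18.5 and 28.7, a ratio of 0.645 (0.418 to 0.993), which is -0.63 on the log2 scale beside -0.20 for all genes. The make-up of this class differed here too: 40.2% of its barcodes with L-fuc and 58.5% in control had a UMI of Ptprc, and its part was not tested. Slc35c1 in other barcodes was at 2.59 (1.15 to 6.604), on 27 and 8 UMIs.

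In macrophages of day 21, Slc35c2 was at 57.5 CPM with L-fuc and 81.5 in control, a ratio of 0.706 (0.616 to 0.808) that did not reach 1.5-fold. Barcodes with at least 2 UMIs of Arg1 held 56 of its 332 UMIs with L-fuc and 24 of 609 in control. Slc35c2 was at 37.7 and 37.2 CPM in these, and at 64.4 and 85.2 in macrophages without Arg1. The part of this make-up in the ratio was not tested. Fuca2 was at 70.1 and 70.5 in macrophages of day 21, a ratio of 0.995 (0.872 to 1.13). In tumor barcodes Fuca1 was at 70.1 and 96.4, a ratio of 0.727 (0.652 to 0.810), and Gmds at 33.6 and 39.5, a ratio of 0.852 (0.724 to 1.00). Fuca1 was lower with L-fuc in all 4 classes, where 3 of the intervals lay below 1 and that of macrophages (0.916, 0.832 to 1.01) held it. The 4 classes come from the same 2 libraries, so they are not separate results. Control day 21 held the highest Fuca1 of the 5 libraries in T cells (105.9 CPM), tumor (96.4) and other barcodes (110), but not in macrophages. At day 7 the ratio of Fuca1 in tumor barcodes was 1.02 (0.977 to 1.07), and the difference between the days was not tested. Fcsk in tumor barcodes of day 21 was at 7.60 CPM with L-fuc and 12.8 in control, a ratio of 0.592 (0.424 to 0.817), past 1.5-fold where no member was. The control value of day 21 stood apart: tumor Fcsk was at 6.93 CPM at day 0, and at 7.73 (control) and 8.20 (L-fuc) at day 7. Control day 21 was at 1.66 times control day 7 (1.37 to 2.01). Tsta3 was at 0.721 (0.581 to 0.892) in macrophages and, on 26 and 25 UMIs, at 0.557 (0.309 to 1.01) in T cells.

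Over both days together, L-fuc was tested against control within each class in edgeR's quasi-likelihood test with the day as a block, on 4 libraries with 1 residual degree of freedom. None of the 6 members passed in any class, and none had an unadjusted p under 0.05. Of all genes, 0.0648% passed in T cells, 0.801% in macrophages, 0.00746% in tumor barcodes and 0% in other barcodes, while 121, 483, 476 and 734 genes had an unadjusted p under 0.05. Fuca2 in other barcodes was at 0.63 on the log2 scale (SE 0.37, adjusted p = 0.833) and Slc35c1 there at 1.03 (SE 0.43, adjusted p = 0.832). Fuca1 was at -0.40 in T cells (SE 0.35, adjusted p = 1) and at -0.18 in tumor barcodes (SE 0.15, adjusted p = 1.00).

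**Figure D5:**
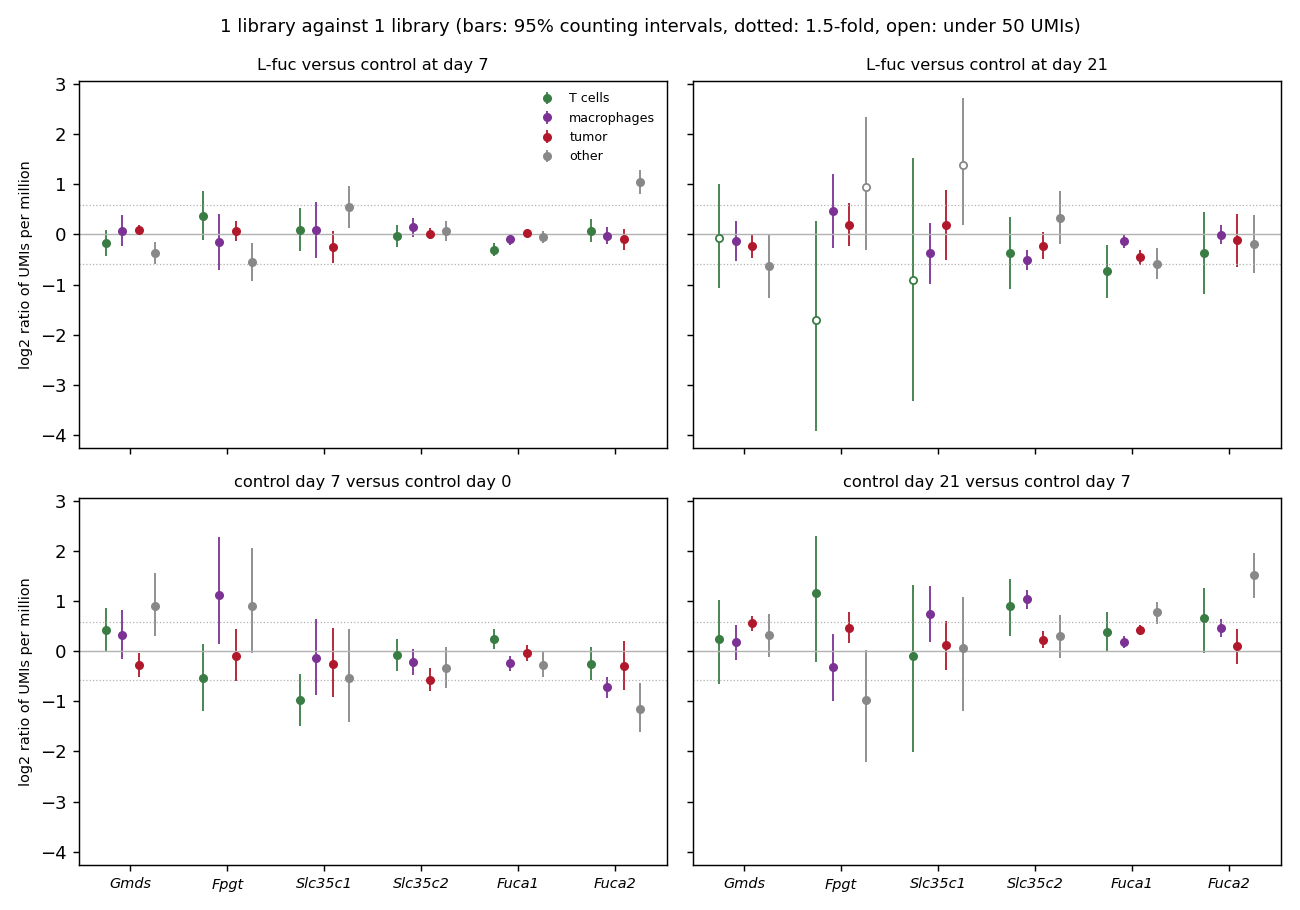
Log2 ratio of CPM between libraries for each gene and class, with 95% counting intervals, dotted lines at 1.5-fold and open points where both libraries together held under 50 UMIs. At day 7 the tumor and macrophage ratios of L-fuc to control lie between 0.844 and 1.10 on the linear scale, and Fuca2 in other barcodes is at 2.06.

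Control libraries of different days were compared in the same way, with control day 7 used in both comparisons. From control day 0 to control day 7, 6 of 24 pairs were past 1.5-fold, beside 45.0% of all genes in T cells, 47.2% in macrophages, 28.7% in tumor barcodes and 61.6% in other barcodes. Fuca2 in macrophages was at 51.3 CPM at day 7 and 84.8 at day 0, a ratio of 0.605 (0.527 to 0.696). Slc35c1 in T cells was at 7.66 and 15.01, a ratio of 0.510 (0.357 to 0.733). Fpgt in macrophages was at 5.32 and 2.44, a ratio of 2.18 (1.10 to 4.82) on 10 UMIs at day 0. The remaining 3 were in other barcodes: Fuca2 at 0.452 (0.325 to 0.642), Gmds at 1.86 (1.23 to 2.95) and Fpgt at 1.88 (0.972 to 4.15), the last on 9 UMIs at day 0. None of the 6 was in tumor barcodes, where Slc35c2 at 0.672 (0.575 to 0.790) was closest. The median log2 ratio over all genes was 0.30 in T cells, 0.37 in macrophages, 0.06 in tumor and 0.48 in other barcodes. On that scale Gmds was at 0.89, Fpgt at 0.91 and Fuca2 at -1.15 in other barcodes.

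From control day 7 to control day 21, 8 of 24 pairs were past 1.5-fold, beside 44.2%, 36.2%, 22.3% and 45.2% of all genes in T cells, macrophages, tumor and other barcodes. Slc35c2 in macrophages was at 81.5 CPM at day 21 and 39.9 at day 7, a ratio of 2.04 (1.80 to 2.33). Slc35c1 in macrophages was at 8.56 and 5.11, a ratio of 1.67 (1.14 to 2.48). In other barcodes Fuca2 was at 2.87 times its day 7 level (2.08 to 3.88), Fuca1 at 1.71 times (1.46 to 1.98) and Fpgt at 0.506 (0.216 to 1.01). In T cells, on 67 barcodes at day 21, Slc35c2 was at 1.87 (1.24 to 2.73), Fuca2 at 1.57 (0.977 to 2.41) and Fpgt at 2.23 (0.856 to 4.90). In T cells below 10 UMIs of C1q, Slc35c2 was at 24.2 CPM at control day 7 and at most 32.2 in any library. The whole class was at 53.9 at control day 21, and the part of C1q-rich barcodes in the ratio was not tested. No tumor ratio reached 1.5-fold, although Gmds at 1.47 (1.32 to 1.63) and Fuca1 at 1.34 (1.26 to 1.44) had intervals above 1. Over all genes the median log2 ratio was -0.06 in T cells, -0.17 in macrophages, 0.15 in tumor and -0.13 in other barcodes.

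The share of barcodes with a UMI depends on depth, so it was also read at 1 depth. Fuca2 was seen in 25.1% to 43.7% of macrophages and in 5.45% to 14.01% of tumor barcodes, and after each barcode had been thinned to 1000 UMIs in 3.63% to 9.19% and 0.353% to 0.860%. Gmds was seen in 18.2% to 51.8% of tumor barcodes, and after thinning in 2.33% to 3.66% of tumor barcodes and 0.811% to 2.02% of macrophages. No class is known to lack these genes, so a background share was not measured. Thinning left out 2 to 25 barcodes per library in these classes.

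Genes with the most similar pattern were found by Pearson's r of log2(CPM + 1) over the 20 sums of 5 libraries and 4 classes, among 10270 genes with at least 10 UMIs in 15 of the sums. Sums of a library share its depth and its base of scaling, so r is a description. Fuca2 was closest to Man2b1 (r = 0.98), a lysosomal α-mannosidase, then to Acvrl1, Unc93b1, Cryzl2 and Rgs10 (0.98 each). Fuca1 was closest to P2rx4 (0.94), Fcgrt, Tifa, Plbd2 and Ifngr2 (0.93 to 0.91). Slc35c2 was closest to Pgap2 (0.93), Ppt1, Scamp2, Acp2 and Glmp (0.91 to 0.87). Gmds was closest to Rbmx (0.96), Ash2l, Cops7b, Scrn2 and Rab28 (0.95 to 0.94). Fpgt was closest to Pggt1b (0.88), Dph2, Cdc25a, Tyw1 and Abitram (0.87 to 0.85), and Slc35c1 to C030006K11Rik (0.80), Relt, 5830408C22Rik, Hint3 and Tpst2 (0.77 to 0.76).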

How the data were processed

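Per the file headers and the labels, the authors aligned 10x Genomics reads to mm10 with Cell Ranger (3.0 in the submitters' processing notes, 7.1.0 in the matrix headers) and deposited UMI counts for every gene and barcode as raw whole numbers. The 5 T cell receptor libraries were not used. Total counts per library were 14439185 to 119047810. Members, lists and tests were chosen with earlier results of these data known. The rule for named genes was the 6 members, at most 4 genes of each functional list (the highest and lowest estimates) and the 5 genes of most similar pattern for each member. Tsta3 was named as the partner of Gmds. Some genes that the rule names are not reported here.

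Classes followed the rules stated with the results. Class sums were tested with edgeR 4.0.16 in R 4.3.3 (filterByExpr, TMM, quasi-likelihood, library block, adjusted p under 0.05). Each SE was worked out from edgeR's estimate and its p-value, so it is not a separate measure. The script was tested on simulated data. Conditions have 1 library each and no test within a day. A test of L-fuc over both days with the day as a block (edgeR, 4 libraries) was added after seeing the data. Intervals are exact Poisson for levels, Clopper-Pearson for shares and conditional binomial for ratios, at 95%, and cover counting error only. Ratios were called past 1.5-fold among genes with at least 50 UMIs in 2 libraries. Doublets were not called with a tool: barcodes that met more than 1 class rule were left out as an alternative, as were the top 5% of barcodes by UMIs. Other alternatives were 200 genes, 20% mt- UMIs, stricter class thresholds, thinning to 1000 UMIs, other scalings, DESeq2 1.42.0, no filter, no library block and each library left out. Python 3.11.15 was used for the rest.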

Additional observations from a re-analysis of the deposited data

How the results depend on the processing

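The number of members past the threshold stayed within 1.5 times of the reported one in the class comparisons, except as follows. For tumor against T cells it went from 4 to 1 when barcodes were thinned to 1000 UMIs and to 2 without both libraries of day 21 (an alternative added after seeing the data), and for tumor against macrophages from 5 to 3 when thinned. Fpgt and Slc35c1 fell below the filter on counts when thinned, so they were not tested there. Of all genes tested when thinned, 3583 of 6938 passed for tumor against T cells and 3846 of 6938 for tumor against macrophages. Without both libraries of day 21, 7677 of 13406 genes passed for tumor against T cells. Among class comparisons, signs turned for these values, none of which had passed: Slc35c1 between macrophages and T cells (0.042 without control day 0, and -0.41 to 0.042 over the libraries left out in turn), Fpgt between tumor and T cells (0.25 with total UMIs, 0.011 with no filter on low counts, and -0.19 to 0.16 over the libraries left out in turn, positive at 0.16, 0.017 and 0.025 without control day 0, L-fuc day 7 and control day 21) and Fuca1 between tumor and T cells (0.011 with total UMIs, 0.11 without overlapping barcodes). Without the replicate block (the library), 3 of 6, 3 of 6 and 5 of 6 members passed in the 3 class comparisons, beside 3551, 7121 and 8132 of 12932 genes. The lost one was Slc35c2 between tumor and T cells (-0.54, edgeR adjusted p = 0.0669). For L-fuc against control over both days (added after seeing the data), 0 of 6 members passed in every class in edgeR with the day as replicate block and 0 of 6 without it, and no member's sign turned. Without that block no gene of any kind passed in any class.

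For L-fuc against control at day 7, the number of pairs past 1.5-fold went from 1 to 2 with at least 200 genes, without the top 5% of barcodes by UMIs and as a mean over barcodes, and to 5 when thinned. At day 21 it went from 2 to 1 with at least 200 genes, at most 20% mt- UMIs, overlapping barcodes left out or thinning, to 0 when scaled without mitochondrial, ribosomal, hemoglobin, immunoglobulin and Malat1 genes, and to 7 as a mean over barcodes. From control day 7 to control day 21 it went from 8 to 5 with stricter class thresholds and when thinned, where Slc35c2 in T cells turned to a log2 ratio of -0.64. When thinned, the T cells of control day 21 held 66000 UMIs of all genes in 66 barcodes, and the cause of the turn was not tested. Depth limits Fpgt and Slc35c1 most, with 4 to 7 UMIs each in the T cells of day 21. The share of all genes past 1.5-fold was not counted under these alternatives, so these numbers of pairs have no background. How many pairs still had at least 50 UMIs when thinned is not given.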
